A study of Macaca mulatta with 60 samples.

Results

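The left ventricle (LV) of rhesus macaque fetuses was compared between 3 fetuses whose mothers received bisphenol A (BPA) during late gestation (LG) and 3 matching control fetuses. These 6 samples were chosen by their labels, from 60 samples of female fetuses in 5 tissues. Samples are numbered 1 to 12 in each tissue, and those that share a number were taken to be from the same fetus. The measurement was 1 array per sample, and the values are log2 levels of 26149 transcripts and small RNAs. Each dam of the LG BPA group ate a piece of fruit daily that carried 400 µg of deuterated BPA per kg body weight in an ethanol vehicle, from gestation day 100 to term. Dams of the LG control group received the vehicle alone over the same period. All 6 fetuses were sampled after vaginal delivery and are numbered 7 to 9 (LG control) and 10 to 12 (LG BPA). Early gestation (EG) fetuses, used below for comparison, are other animals, removed by caesarian section. Dams of the EG BPA group (fetuses 4 to 6) received the same dose of BPA from day 50 to day 100, and those of the EG control group (fetuses 1 to 3) the vehicle alone. Only female fetuses were studied, because the tissues came from a study of the ovary.

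BPA is a plastic monomer that binds estrogen receptors and can interfere with other hormone pathways. The LV pumps blood into the systemic circulation, and around birth its muscle cells slow their division and exchange fetal for mature forms of contractile, channel and metabolic proteins. Myosin heavy chains, voltage-gated potassium channels, metalloproteases of the ADAM family and cyclic AMP signalling are among the protein systems through which a ventricle contracts, repolarizes and remodels.

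Each tissue was pulverised whole, so fewer cells of a type and less RNA per cell cannot be told apart. All LV samples shared a slide and their cDNA was not amplified. Medians of the 12 LV arrays lay between 6.55 and 6.66. The array of EG control fetus 2 correlated least with the others (median r across transcripts 0.858, against 0.905 to 0.930 for the other 11). On each LV array 71 to 810 transcripts shared the array's lowest value, which lay between −1.2 and 0.63, so a level there is an upper limit. The LG arrays with the highest lowest values were those of fetus 9 (0.63) and fetus 11 (0.05). Of the working cardiomyocyte markers only Myh6, the alpha cardiac myosin heavy chain, could be named among the transcripts. Its level was 14.2 to 14.4 in the LG controls and 5.56, 7.62 and 13.45 in the LG BPA fetuses, so the marker itself belongs to the difference described here.

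A transcript was called when its log2 fold change (LFC) was at least 1 in size and its unadjusted limma p was at most 0.01, as the authors did. In LG LV 148 of 17628 tested transcripts (0.84%) were called, 77 higher and 71 lower in BPA exposed fetuses. The authors' descriptions mark 85 of them as protein coding (36 higher, 49 lower) and 63 as noncoding (41 higher, 22 lower). A transcript was taken as well above the lowest value when its level exceeded the array's lowest value by a mean of at least 4 on the log2 scale (16-fold) over the 6 LG arrays. This mean takes in both groups, so a call can pass through the group where it was higher while the other group lies nearer the lowest value. The limit left 54 protein coding calls, 25 higher and 29 lower, of which 43 carry a protein name. Their LFC ranged in size from 1.25 to 2.40 among the higher and from 1.15 to 5.38 among the lower, with medians of 1.68 and 1.74. The median size of the LFC over all tested transcripts was 0.43.

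Calls were more frequent at low levels. Among the 13819 tested transcripts well above the lowest value 0.659% were called, and among the other 3809 the share was 1.5%. Accordingly 61.5% of the calls lay well above the lowest value, against 78.4% of all tested transcripts. Even the 54 protein coding calls were mostly of low level, as the median of their mean levels was 4.61 where the median transcript of an array lay at 6.58, and 9 of them reached the median over transcripts. These 9 include Myh6, the kinase Cit, the interferon-induced Ifit1l, the copper pump Atp7b and the transporters Nipal1, Slc25a33 and Slc1a4. Just inside the limit were Myo3b (4.01 above the lowest value), Srd5a1 (4.02) and Myt1l (4.05), and just outside it Lbx2 (3.94), Hpx (3.94) and Wisp2 (3.84).

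**Figure D1:**
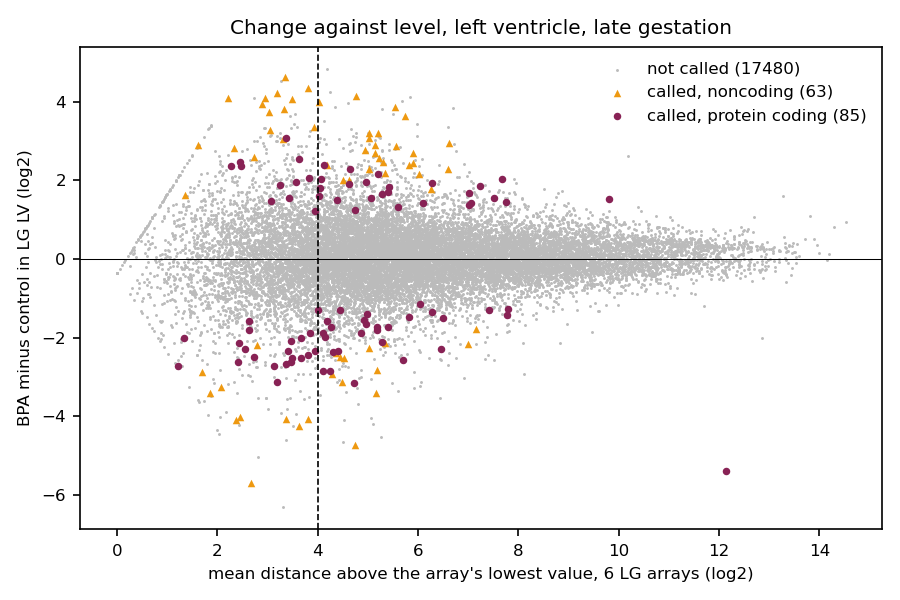
LFC (BPA minus control, log2, vertical axis) of all 17628 tested transcripts against their mean distance above the array's lowest value over the 6 LG arrays (log2, horizontal axis). Grey points were not called, orange triangles are the 63 noncoding calls and purple points the 85 protein coding calls; the dashed line marks a distance of 4, and Myh6 is the purple point at −5.38, far to the right.

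No protein coding call passed adjustment for the number of transcripts. Adjusted p-values of the 85 lay between 0.848 and 0.983, and limma gave 148 transcripts with an unadjusted p of at most 0.01, where 1% of those tested is 176.28. Unadjusted limma p-values of the 54 ranged from 0.000591 to 0.00996. In 52 of the 54 the BPA fetuses were all above or all below the controls. Over all tested transcripts 4.41% had all BPA fetuses above and 3.8% all BPA fetuses below the controls, but the calling itself used these samples, so nothing is read from the 52. For 3 fetuses against 3 an exact permutation test cannot give a p below 0.1, and it gave 0.1 for each of these 52.

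The largest rises among named proteins well above the lowest value belonged to a sugar transferase, a T-cell adaptor and an interferon-induced protein. B3galt1, which adds galactose to glycan chains, had log2 levels of 2.27, 2.62 and 3.92 in the controls and 5.12, 5.30 and 5.22 in the BPA fetuses (LFC 2.28, SE 0.53, a 4.85-fold rise; unadjusted p of 0.00121, limma adjusted p = 0.851). The groups did not overlap, and the BPA fetuses lay within an SD of 0.09. Skap1, an adaptor that works beside Src kinases in lymphocytes, was at 4.13, 4.32 and 2.16 in controls and at 5.61, 5.54 and 5.92 in BPA fetuses (LFC 2.15). The low value of control fetus 9 made up much of that difference, since without this fetus the LFC was 1.46. The call was lost without fetus 9 and without each of the BPA fetuses. B3galt1 and Skap1 passed the limit of level only through their BPA fetuses, as their controls lay on average less than 4 above the lowest value. C1orf168, an uncharacterised protein, rose from 6.07, 5.60 and 5.53 to 7.74, 6.74 and 8.29 (LFC 1.86, SE 0.44, limma adjusted p = 0.851).

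Among transcripts whose groups did not overlap, the largest falls of named proteins well above the lowest value were those of Myh6, Fam13c, a kinesin and a transmembrane protein. Fam13c, named family 13 member C1-like, had levels of 6.2, 4.83 and 6.15 in controls and 2.65, 2.87 and 2.18 in BPA fetuses (LFC −3.16, SE 0.68, an 8.93-fold fall; unadjusted p of 0.00071, limma adjusted p = 0.851). All BPA values were lower than the lowest control by nearly 2 log2 units. Tmem132c, a transmembrane protein, fell from 6.40, 4.00 and 4.33 to 2.40, 2.40 and 2.85 (LFC −2.36), with the highest control in fetus 7. Without this fetus the LFC was −1.62 and the call was lost.

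**Figure D2:**
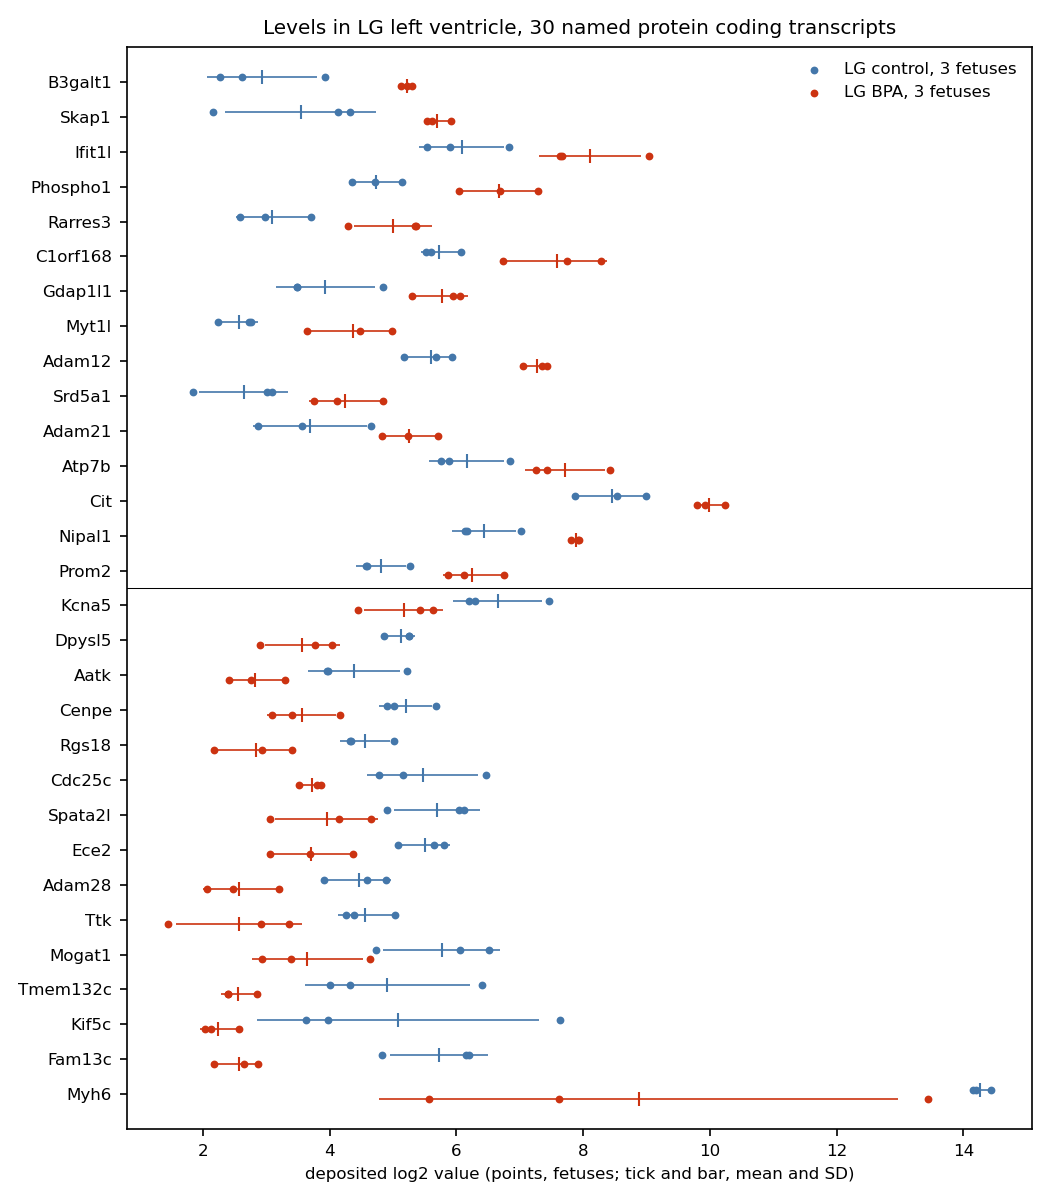
Deposited log2 levels (horizontal axis) in LG LV of the 15 named protein coding transcripts with the largest rises and the 15 with the largest falls, among calls well above the lowest value whose groups did not overlap. Points are fetuses (blue, 3 controls; red, 3 BPA), ticks and bars are group means and SDs; the widest bar is that of Myh6 in BPA fetuses, where fetus 11 stayed at 13.45 and the others at 7.62 and 5.56.

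The described transcripts were next ordered by role. Names were available only for transcripts that the authors listed in some tissue and window, and the list for LG LV holds exactly the calls, so how many of a role were called follows from the naming and is not a result. Under the same criteria the named members were as follows, with uncalled members given by their values.

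Among contractile and motor proteins 3 of 6 were called, all lower. The change of Myh6, the fast alpha myosin heavy chain, was the largest in size of the 54 (LFC −5.38, SE 1.47, limma adjusted p = 0.983), but its spread among BPA fetuses was wide (SD 4.09) against 0.15 among controls. Fetus 11 kept a level close to the controls, and the call was lost when any LG fetus other than 11 was left out. Kif5c, a kinesin that carries cargo along microtubules and is best known from neurons, was at 7.63, 3.97 and 3.63 in controls and at 2.03, 2.56 and 2.13 in BPA fetuses (LFC −2.84). The LFC was −1.56 without control fetus 7, and the call was lost without this fetus and without each of the BPA fetuses. Myo3b, an unconventional myosin with a kinase domain, had a mean of 4.08 in controls and 2.79 in BPA fetuses (LFC −1.29). The uncalled members were Myo16 (LFC −0.89), beta-tubulin Tubb3 (−0.29, below the filter on variation) and smooth muscle Myh11 (0.58).

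Cell division was represented by 7 transcripts, of which the mitotic kinase Ttk, the phosphatase Cdc25c and the kinetochore motor Cenpe were lower and Cit was higher in BPA fetuses. Ttk, which monitors chromosome attachment in the spindle checkpoint, had levels of 4.38, 4.25 and 5.04 in controls and 3.36, 2.91 and 1.44 in BPA fetuses (LFC −1.99, SE 0.57). Cdc25c, which activates the kinase that starts mitosis, was at 5.15, 4.78 and 6.46 in controls and at 3.86, 3.51 and 3.80 in BPA fetuses (LFC −1.74, SE 0.46). Cenpe, the motor that aligns chromosomes, was at 5.02, 4.91 and 5.68 against 3.41, 4.17 and 3.09 (LFC −1.65, SE 0.41). For each of these the groups did not overlap, as held for 52 of the 54 calls, which were chosen from these samples. Among the 6 fits with an LG fetus left out, Cenpe was called in 5, Cdc25c in 4, Ttk in 3 and Cit in 2. With only the 6 LG arrays fitted, none of these was called. The 3 members with meiotic roles were not called: Syce1 (LFC 0.32), Msh5 (−0.02) and Hormad1 (−0.50).

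Cit, the citron kinase of cytokinesis, went the other way. Its levels were 7.87, 8.53 and 8.99 in controls and 10.24, 9.79 and 9.93 in BPA fetuses (LFC 1.52, SE 0.45), without overlap. In the same tissue at EG, mean control levels had been 6.33 for Ttk, 6.27 for Cdc25c and 6.96 for Cenpe, above the LG control means of 4.56, 5.47 and 5.20. The LG BPA means were 2.57, 3.73 and 3.56. Cit had an EG control mean of 9.69, above its LG control mean of 8.46 and near its LG BPA mean of 9.99. Typical proliferation markers such as the Ki-67 antigen were not among the named transcripts and are not analysed here.

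**Figure D3:**
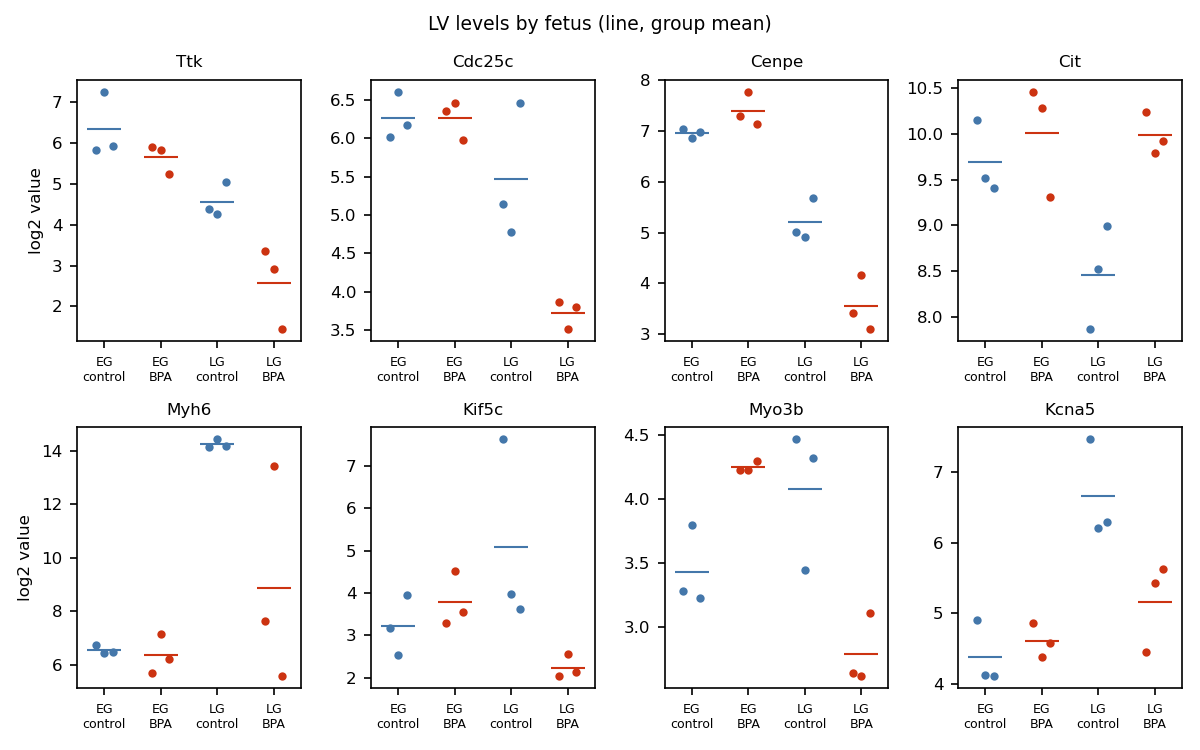
Log2 levels (vertical axes, scaled for each panel) of 8 transcripts in the 4 LV groups, 3 fetuses each; points are fetuses and lines are group means, blue for control and red for BPA. Ttk, Cdc25c and Cenpe were lower at LG than at EG and lowest in LG BPA fetuses, while Myh6 was at 14.2 to 14.4 in LG controls only and Kcna5 was highest there.

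Proteases and their inhibitors moved in opposite directions within a family. Adam12, a metalloprotease that sheds growth factors, rose (LFC 1.68, SE 0.36, limma adjusted p = 0.851), with controls at 5.18 to 5.94 and BPA fetuses at 7.05 to 7.43. Adam21, a relative expressed in the testis, was at 3.57, 2.87 and 4.65 in controls and at 5.23, 5.71 and 4.83 in BPA fetuses (LFC 1.56). Adam28, a relative known from lymphocytes and epithelia, fell from 3.91, 4.89 and 4.59 to 3.20, 2.06 and 2.47 (LFC −1.89, SE 0.44, limma adjusted p = 0.851). None of the 3 overlapped between groups, as held for 52 of the 54 calls, which were chosen from these samples.

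Ece2, a metalloprotease that processes big endothelin, was at 5.64, 5.08 and 5.81 in controls and at 4.36, 3.05 and 3.69 in BPA fetuses (LFC −1.81, SE 0.48). Nearer the lowest value, the trypsin inhibitor Spink1 was higher (LFC 2.36) and a trypsin-like transcript described as Try4 was lower (LFC −2.52). The 7 other described proteases and inhibitors were not called, with LFCs from −0.51 for Spink5 to 1.03 for Wfikkn2, and cathepsin S, abundant in macrophages, had an LFC of 0.15.

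In the extracellular matrix and secretory pathway B3galt1 was higher and 3 transcripts were lower. Chondromodulin-1 (Cnmd), an inhibitor of vessel growth that is known from cartilage and heart valves, was at 4.62, 5.35 and 5.34 in controls and at 3.44, 3.86 and 3.85 in BPA fetuses (LFC −1.39, SE 0.40). Kdelc2, an endoplasmic reticulum protein, fell from a mean of 6.37 to 5.03 (LFC −1.34). Wisp2, a secreted protein of the Wnt pathway just below the limit of level, had an LFC of −1.87 and stayed called whichever LG fetus was left out. The 6 uncalled members had LFCs from −0.81 (hyaluronan synthase Has1) to 1.38 (Bmp10, a cardiac growth factor), and connective tissue growth factor Ctgf, with levels of 9.28 to 12.47, had an LFC of 0.24.

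Signalling transcripts were called in both directions. Adcy10, the soluble adenylate cyclase that responds to bicarbonate, was at 5.60, 6.18 and 5.51 in controls and at 7.21, 7.20 and 7.14 in BPA fetuses (LFC 1.42, SE 0.40), with an SD of 0.03 among BPA fetuses and 0.37 among controls, but was called in only 1 of 6 fits with an LG fetus left out, the fit without fetus 8. Adcy8, a calcium-stimulated membrane cyclase, was near the lowest value, at 2.18, 2.27 and 1.53 in controls and −1.15, 0.14 and −1.15 in BPA fetuses (LFC −2.71), with fetus 10 at its array's lowest value. With the lowest values of the arrays raised to a shared level, the LFC of Adcy8 was −1.37. Rgs18, which shortens G-protein signals in platelets and other blood cells, fell from 4.32, 5.01 and 4.33 to 2.94, 3.40 and 2.18 (LFC −1.72, SE 0.51). Aatk, a membrane kinase also called Lmtk1, fell from a mean of 4.39 to 2.82 (LFC −1.57).

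Below the limit of level, the phosphatase Ptprr (LFC −2.72) and the mast cell receptor Mrgprx2 (mean 4.09 in controls, 2.09 in BPA fetuses) were lower too. Without control fetus 7 the LFC of Ptprr was −1.90. Of 8 uncalled signalling members the most displaced was the histamine receptor Hrh4, whose BPA fetuses (3.48 to 4.21) lay above its controls (1.60 to 3.00) with an LFC of 1.25 and an unadjusted limma p over 0.01. Sgk1, a stress-responsive kinase, had an LFC of 0.64.

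Among channels and transporters the potassium channel Kcna5, which carries the ultrarapid repolarizing current of atrial muscle, fell from 7.46, 6.2 and 6.30 to 4.45, 5.42 and 5.62 (LFC −1.49, SE 0.48, limma adjusted p = 0.983). Its LG control mean of 6.66 was above the EG control mean of 4.38, and the LG BPA mean was 5.17. For the atrial or trabecular markers Kcna5 and Bmp10, 1 of 2 was called, and the log2 of their summed level was 6.27 to 7.47 in controls and 5.00 to 5.70 in BPA fetuses. This sum differed little from the level of Kcna5 alone in the controls, but was 5.00 against 4.45 in BPA fetus 10 and 5.67 against 5.42 in fetus 11. Bmp10 had an LFC of 1.38, and the part of such muscle in the levels of Kcna5 and Myh6 was not tested. Slc1a4, a neutral amino acid transporter, was at 8.21, 7.13 and 7.11 in controls and at 6.23, 6.25 and 6.08 in BPA fetuses (LFC −1.29), but was called in none of the fits with a fetus left out. Slc25a33, a mitochondrial pyrimidine nucleotide carrier, fell from a mean of 7.84 to 6.58 (LFC −1.26), and the water channel Aqp2 from 4.50 to 3.22 (LFC −1.28). Slc10a4, a relative of bile acid carriers, was lower in the mean (LFC −2.56), yet control fetus 8 (4.80) lay below BPA fetus 11 (4.82), so its groups overlapped. Without control fetus 7 the LFC was −1.58, and the call was lost without fetus 7, 9, 10 or 12.

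The transport members called higher carry copper, magnesium, vitamin E or heme. Atp7b, the copper pump that is defective in Wilson disease, was at 6.84, 5.89 and 5.75 in controls and at 8.43, 7.26 and 7.44 in BPA fetuses (LFC 1.54, SE 0.45). Nipal1, a membrane protein of a magnesium transporter family, was at 6.16, 6.13 and 7.03 in controls and at 7.92, 7.93 and 7.81 in BPA fetuses (LFC 1.45, SE 0.39). Nearer the lowest value the vitamin E carrier Ttpa (LFC 1.95) and the heme carrier Hpx (LFC 1.23) were also higher, Ttpa with an LFC of 1.24 and no call when BPA fetus 12 was left out. The 8 uncalled transport members ranged from −1.26 (Asic4) to 1.01 (Slc23a1, a vitamin C carrier).

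Lipid and steroid enzymes were called in both directions. Phospho1, a phosphatase that releases phosphate from phospholipid head groups, rose from 4.72, 5.14 and 4.36 to 7.29, 6.69 and 6.04 (LFC 1.94, SE 0.49, limma adjusted p = 0.939). Srd5a1, the steroid 5-alpha reductase that converts testosterone to dihydrotestosterone, was at 3.01, 1.84 and 3.09 in controls and at 4.11, 3.75 and 4.85 in BPA fetuses (LFC 1.59, SE 0.47). Rarres3, a retinoid-induced phospholipase, was at 2.59, 2.97 and 3.70 in controls and at 5.36, 4.28 and 5.35 in BPA fetuses (LFC 1.91, SE 0.52).

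Mogat1, which builds diacylglycerol, fell from 6.05, 6.52 and 4.73 to 4.63, 2.93 and 3.39 (LFC −2.12, SE 0.59), with control fetus 9 and BPA fetus 10 almost level. The neutral ceramidase Asah2 (LFC −2.62) and the inactive phospholipase Pld5 (−2.07) were lower at levels below the limit. The 5 uncalled members ranged from −0.02 (Aoah) to 1.35 (the retinoic acid carrier Crabp1), and a fatty acid-binding protein with levels of 12.0 to 12.7 had an LFC of 0.05.

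Transcripts best known from nerve cells formed the next group. Gdap1l1, a relative of a mitochondrial fission factor, was at 4.84, 3.49 and 3.48 in controls and at 5.30, 5.94 and 6.06 in BPA fetuses (LFC 1.83), and Myt1l, a neuronal transcription factor, rose from a mean of 2.58 to 4.37 (LFC 1.80). Dpysl5, which guides neurite growth, fell from 5.26, 4.86 and 5.25 to 4.04, 2.90 and 3.77 (LFC −1.55, SE 0.41), and the postsynaptic protein Anks1b from a mean of 5.98 to 4.50 (LFC −1.48). The granule protein Scg3 was lower below the limit of level (LFC −2.66). The uncalled Ctnnd2 (−1.21) and Unc5d (1.56) had overlapping groups, and Cntn6 had an LFC of 1.46 and Cpne6 of −0.74.

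Beside Myt1l, 3 transcription factors were called, all homeobox or doublesex-type genes of embryonic patterning below the limit of level. Lbx2 was at 4.15, 4.73 and 4.69 in controls and at 1.87, 2.79 and 1.93 in BPA fetuses (LFC −2.33, SE 0.47; unadjusted p of 0.000433, limma adjusted p = 0.848). Goosecoid (Gsc, LFC −2.49) and Dmrta1 (−2.63) were lower as well, and Lbx2 and Dmrta1 stayed called whichever LG fetus was left out. The other 8 were not called, from −0.36 (Sall4) to 0.84 (the immediate early factor Nr4a1).

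Of the 23 transcripts grouped as immune and blood 4 were called, each of them higher. This direction depends on the grouping, because Skap1 (higher), Rgs18 and Mrgprx2 (both lower), also known from blood or mast cells, were grouped with signalling above. Ifit1l, named as a relative of an interferon-induced antiviral protein, was at 5.53, 6.83 and 5.89 in controls and at 9.04, 7.67 and 7.63 in BPA fetuses (LFC 2.03, SE 0.62, limma adjusted p = 0.983). An immunoglobulin heavy chain fragment (Ighep2) rose from a mean of 4.37 to 5.68 (LFC 1.32). Below the limit, the lymphocyte protein Tcl1a (LFC 2.05) and the mucosal chemokine Ccl28 (LFC 1.56) were higher.

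The uncalled members did not share one direction. An MHC class I antigen was at 1.19, 4.29 and 3.66 in controls and 5.60, 5.63 and 4.90 in BPA fetuses (LFC 2.33), without overlap but with a p over 0.01, and another interferon-induced transcript, Ifi27l1, had an LFC of −0.67. The 6 leucocyte markers (Cd52, Csf3r, Fcgr2b, Lcp2, Csf2rb and cathepsin S) were all uncalled and overlapping, and the log2 of their summed level was 9.19 to 10.2 in controls and 9.71 to 10.9 in BPA fetuses. For the erythroid markers Alas2 and Klf1 the sums were 8.05 to 9.14 and 8.40 to 10.8. The part of blood cells in the immune differences was not tested.

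Remaining names among the calls well above the lowest value had varied roles. Prom2, a protein of plasma membrane protrusions, rose from 4.57, 4.59 and 5.27 to 6.75, 5.87 and 6.12 (LFC 1.43), and Ceacam16, an adhesion molecule of the inner ear, from a mean of 3.54 to 4.79 (LFC 1.25). Spata20 fell from 7.98, 7.79 and 7.96 to 6.97, 5.97 and 6.51 (LFC −1.42), and Spata2l from a mean of 5.69 to 3.95 (LFC −1.74). A transcript described as HIP14-related protein was lower in the mean (LFC −2.28), but control fetus 8 (6.39) lay under BPA fetus 11 (6.51). Its LFC was between −3.16 and −1.67 with an LG fetus left out, and the call was lost without fetus 7, 9, 10 or 12.

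How far the calls rested on single fetuses was checked by leaving out each LG fetus in turn. Of the 54 protein coding calls well above the lowest value 19 to 32 were called again in a fit without 1 fetus, and 8 were called in all 6 such fits. Those with names were B3galt1, C1orf168, Adam12, Adam28 and Fam13c. B3galt1 kept an LFC between 1.94 and 2.77, Adam12 between 1.47 and 1.85, C1orf168 between 1.51 and 2.28, Adam28 between −2.20 and −1.63 and Fam13c between −3.61 and −2.92. B3galt1, Adam28 and Fam13c were also called under the 8 other settings of filter, variance, normalization and array weights. In each of them the group with the lower levels lay on average less than 4 above the lowest value, so they passed the limit through the other group. Of the other named proteins well above the lowest value, 5 were called in 4 or 5 of the 6 fits and 23 in 2 or 3. Adam21, Adcy10, Aqp2, Kdelc2, Spata20, Anks1b, Tmem132c and Myh6 were called in only 1, and Slc1a4 and Ceacam16 in none.

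**Figure D4:**
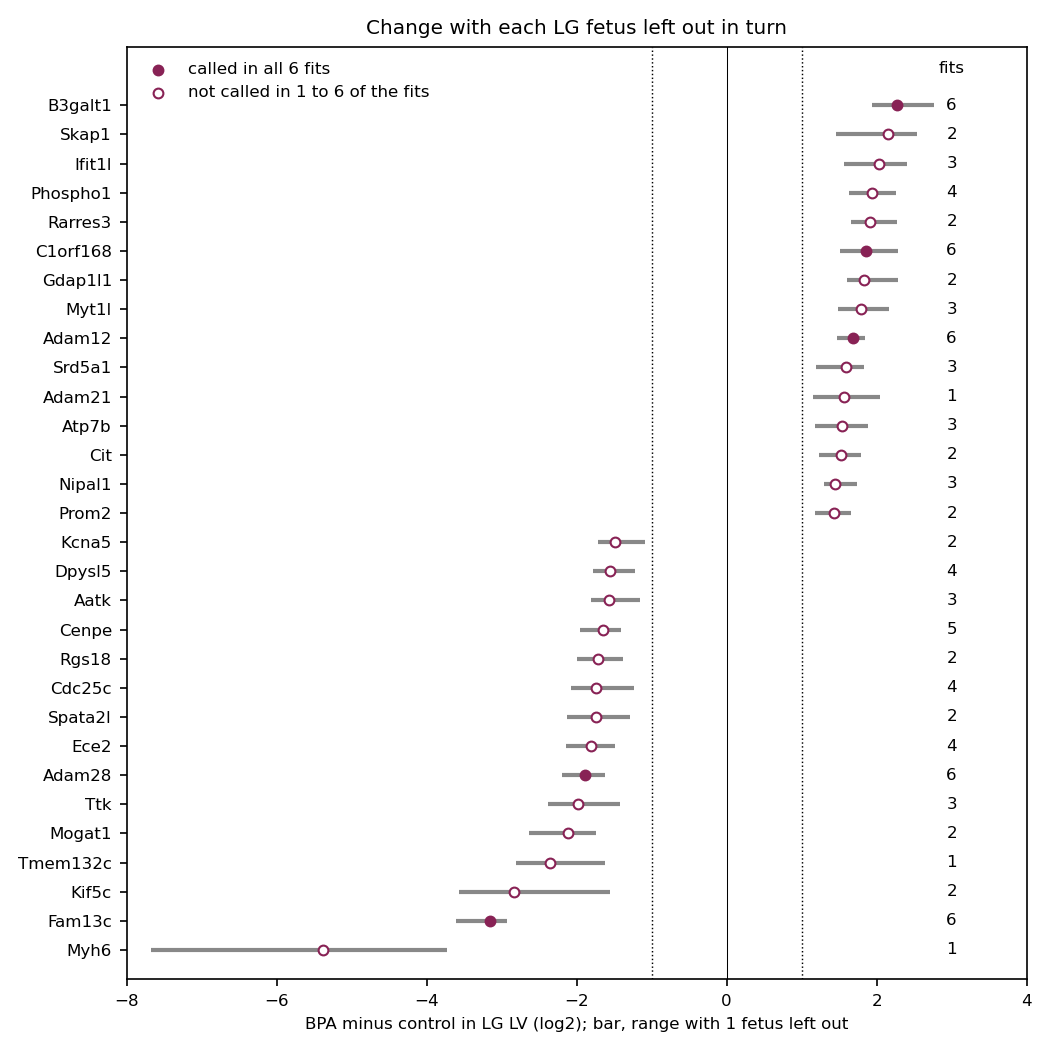
LFC in LG LV (horizontal axis, log2) of the 30 named transcripts, with a grey bar from the lowest to the highest LFC when 1 of the 6 LG fetuses was left out, and the number of those 6 fits that called the transcript at the right. Filled points were called in all 6, dotted lines mark an LFC of 1 and −1, and the bar of Myh6 runs from −7.67 to −3.73.

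Whether the changes of LG were also seen after EG exposure was asked in the same tissue, in other fetuses. In EG 0.925% of tested transcripts were called. Of the 25 protein coding transcripts that rose in LG, none was called higher and 2 were called lower in EG. Of the 29 that fell in LG, none was called lower and 1 was called higher in EG. All 3 EG BPA fetuses lay above the EG controls for 2 of the 25 and 4 of the 29 (5.69% of all tested), and below them for 4 of the 25 and 0 of the 29 (5.03% of all tested). At an unadjusted limma p of at most 0.05, 4 of the 25 were lower in EG (3.23% of all tested) and 2 of the 29 higher (1.62% of all tested), and 0 of the 54 had such an effect in the LG direction. The LG and EG effects of a transcript share an estimate of its spread. Choice by a low LG p favours small spreads, which can raise the EG shares above those of all tested, so nothing is read from the shares.

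The transcripts called in opposite directions were Fam13c, Rarres3 and Ighep2. Fam13c was at 3.16, 3.04 and 2.30 in EG controls and at 4.90, 6.47 and 3.51 in EG BPA fetuses (LFC 2.13), so the BPA fetuses lay above the controls at EG and below them at LG. For Fam13c the LG effect less the EG effect was −5.29 (SE 0.97, limma adjusted p = 0.490). Rarres3 was at 4.29, 5.85 and 4.56 in EG controls and at 3.05, 3.36 and 2.83 in EG BPA fetuses (LFC −1.82), and its effects differed by 3.73 (SE 0.73, limma adjusted p = 0.636). Ighep2 had an EG LFC of −1.28 and a difference of 2.60 (SE 0.54, limma adjusted p = 0.757).

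Below the limit of level, Hpx behaved in the same manner, with an EG LFC of −1.95 and a difference of 3.19 (SE 0.54, limma adjusted p = 0.490). Asah2 was the only one of the 85 protein coding calls that was called in the same direction in both windows, at −2.01 in EG and −2.62 in LG. Its EG groups overlapped. Myh6, in contrast, was at 6.44 to 6.73 in EG controls and at 5.69 to 7.16 in EG BPA fetuses (LFC −0.20).

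The difference between LG and EG effects was called by the same criteria for 207 transcripts (1.17%), among them 17 of the 54. Since the 54 were chosen by the LG effect, this count is partly fixed by the choice. The smallest adjusted limma p of this difference over all transcripts was 0.265, and 998 had an unadjusted p of at most 0.05. For the cell division transcripts it was −2.09 for Cenpe (SE 0.57), −1.74 for Cdc25c (SE 0.65) and −1.31 for Ttk (SE 0.81), and none of them had an adjusted p under 0.772.

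The other tissues, taken by their numbers to be from the same LG fetuses, were normalized separately, so only effects are set side by side. In the right ventricle (RV) 27 of the 54 passed the filter on variation and 1 was called, Adam12, which had levels of 6.02, 5.06 and 5.47 in controls and 7.03, 6.40 and 6.76 in BPA fetuses (LFC 1.21, SE 0.36). The share called in RV was 0.549%. In the left atrium (LA) 24 of the 54 were tested and 0 called (1.09% of all), and in the right atrium (RA) 23 were tested and 0 called (0.439% of all). In biceps femoris muscle (BFM) 22 were tested and 1 unnamed transcript, ENSMMUT00000017238, was called higher as in LV (LFC 1.16; 0.825% of all). At an unadjusted limma p of at most 0.05 there were 3 of the 27 tested in RV (2.67% of all tested), 1 of 24 in LA (5.47%), 0 of 23 in RA (2.86%) and 2 of 22 in BFM (5.32%), each in the direction of LV.

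Ifit1l varied between fetuses in every tissue. In RV its levels were 4.79, 5.55 and 7.18 in controls and 7.95, 8.12 and 4.86 in BPA fetuses (LFC 1.14), and in LA BPA fetus 10 reached 9.98 while the others of both groups lay between 4.34 and 6.37 (LFC 2.11). In BFM the LFC was 1.55 and in RA 0.21. Its groups overlapped in all 4 of these tissues. Cit had an RV LFC of 1.20, with BPA fetuses 10 and 12 at 10.06 and 9.85 and fetus 11 at 7.34, below all RV controls. Spata20 was lower in RV without overlap (LFC −0.98), and Slc25a33 had an RV LFC of −1.23 with overlapping groups. In RV, Myh6 was at 6.47, 14.23 and 14.01 in controls and 12.84, 13.68 and 7.63 in BPA fetuses.

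**Figure D5:**
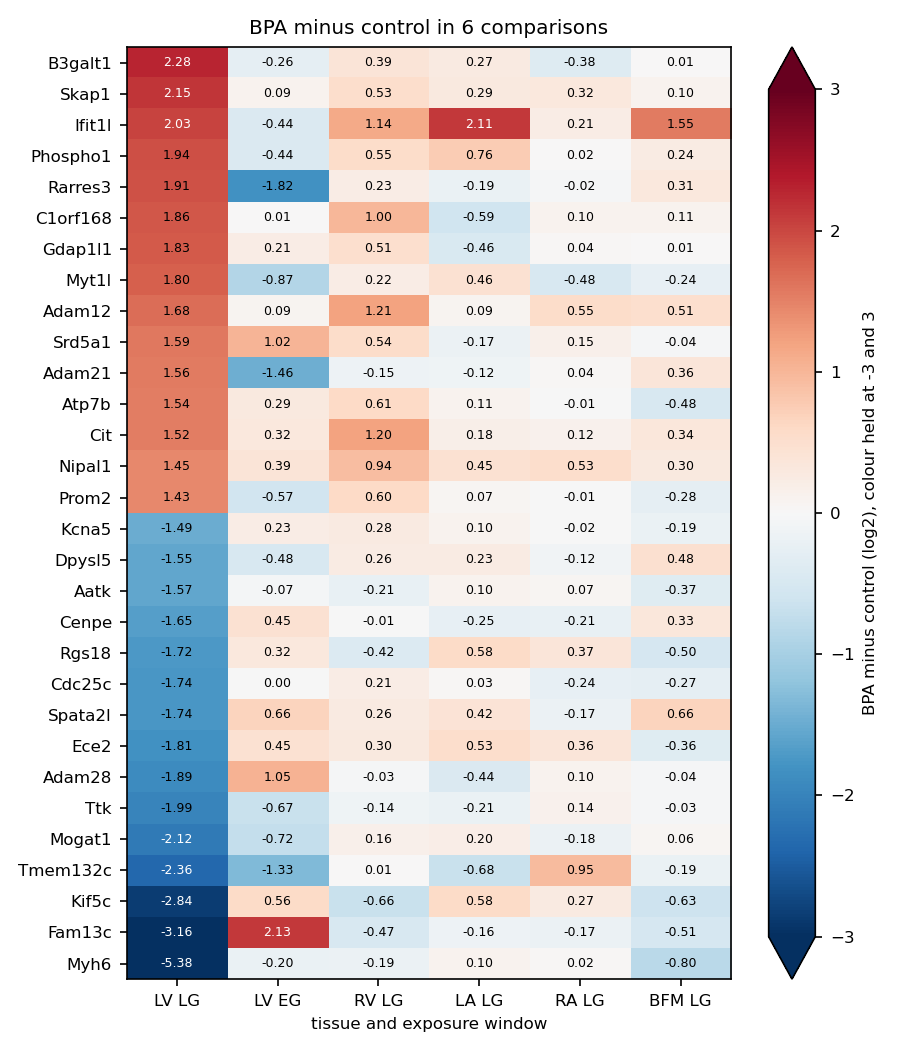
BPA minus control (log2; printed in each cell, colour held at −3 and 3) for the 30 named transcripts in LG LV, EG LV and LG RV, LA, RA and BFM, 3 fetuses against 3 in each. Adam12 is positive in RV at 1.21, Ifit1l is positive in LA at 2.11, and Fam13c turns from −3.16 in LG LV to 2.13 in EG LV.

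The difference between LV and RV effects was called for 140 transcripts (0.794%) and for 147 with the fetus as a replicate block. The block takes the LV and RV samples of a number as from the same fetus. Among the 54 the difference was called for 20 in either fit, a count that the choice by the LV effect partly fixes. The SEs and the adjusted p below are from the fit without the block, which takes LV and RV samples as independent. For Cdc25c the difference was −1.95 (SE 0.52), as RV levels were 4.24 to 4.53 in controls and 4.67, 4.47 and 4.68 in BPA fetuses. For Cenpe it was −1.64 (SE 0.48) and for Adam28 −1.86 (SE 0.51), and for Adam12 0.46 (SE 0.46). The smallest adjusted limma p among the 54 was 0.986. The spread was larger in LV than in RV, as the median within-group SD of the 85 protein coding calls was 0.605 in LV and 0.343 in RV, and that of all transcripts 0.580 and 0.413. The part of this spread in the differences was not tested.

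Genes that the authors singled out for hormone and fuel pathways were not called in LG LV. Thrb, the beta form of the thyroid hormone receptor, was at 7.29, 7.95 and 7.78 in controls and at 8.51, 8.90 and 8.14 in BPA fetuses (LFC 0.85, SE 0.39), without overlap. The kinase Pdk4 had an LFC of 0.35, and the glycogen primer Gyg1 had −0.59 and did not pass the filter on variation.

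Among noncoding calls 29 of 63 had at least 1 LG array at its lowest value, against 4 of 85 protein coding calls, while 58.7% and 63.5% lay well above it and the median distances were 4.48 and 4.31. Among the 7 named microRNA transcripts only mir-640 had levels well above it, at 6.02, 6.55 and 5.50 in controls and 2.50, 2.99 and 4.12 in BPA fetuses (LFC −2.81, limma adjusted p = 0.983). The muscle-related mir-133c, with levels of 4.51, 2.54 and 4.44 in controls, was at −1.15, 0.05 and 0.33 in BPA fetuses, of which fetuses 10 and 11 were at the lowest value of their arrays. The others were mir-487a (LFC −4.01) and mir-184 (−2.87), which were lower, and mir-205, mir-224 and mir-562, which were higher. With the lowest values raised, the LFC was −3.22 for mir-487a and −3.20 for mir-133c, and mir-184 (−1.93) and mir-562 (2.12) lost their calls. Among the 6 fits with an LG fetus left out, mir-205, mir-224 and mir-487a were called in all, mir-133c in 3, mir-640 and mir-562 in 2 and mir-184 in 1.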

How the data were processed

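Levels were measured in 60 samples on custom NimbleGen arrays with probes for Ensembl transcripts of the Mmul_1 assembly. The authors background corrected and quantile normalized the probes within each tissue and summarized them by robust multi-array averaging, and the log2 values they deposited were used as given. Scanner intensities were not used here, so distance to background is unknown, and precision is limited by the number of arrays. Samples were grouped by their labels. Nothing was read from the authors' own fold changes and p-values.

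Group means of the 12 arrays of a tissue were fitted in R 4.3.3 by the lmFit, contrasts.fit and eBayes functions of limma 3.58.1 after removing transcripts with an interquartile range below 0.5, which left 17628 in LV. Fetuses of all 4 groups thus share 1 estimate of the spread, and p-values measure the spread between these fetuses. Benjamini-Hochberg adjustment ran over all tested transcripts, and exact two-sided permutation tests over 10 splits of 6 fetuses. The fits were tested on simulated data. Figures were drawn in Python 3.11.15 with matplotlib 3.10.9.

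Members, gene lists and the limit of 4 above the lowest value were chosen with earlier results of these data known. Named were the 15 largest rises and 15 largest falls among non-overlapping protein coding calls above that limit, every called member of a role group and up to 4 uncalled ones, named microRNAs, and Myh6, Adam12, Thrb, Pdk4 and Gyg1; other names were chosen after their values were seen. Names come from the authors' descriptions, as the gene tables used here hold no transcript identifiers, and most planned cell type markers and pathway lists, positions and sequences are therefore not reported.

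Samples that share a number were taken to be from 1 fetus, in every tissue, which the labels do not state. Deviations from group means correlated between LV and RV of a number by −0.02 to 0.33, over 0.1 in 7 of 12. The LV sample correlated best with the RV sample of its own number in 4 of 12. Alternatives covered the filter, the arrays fitted, the variance prior, normalization, raised lowest values, array weights (statmod), the threshold, each LG fetus left out and, chosen after seeing the data, EG control fetus 2 left out.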

Additional observations from a re-analysis of the deposited data

How the results depend on the processing

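The 148 calls in LG LV became 78 with an interquartile range of at least 1, 252 with array weights and 1 at an adjusted p of at most 0.05, and 139 to 237 without 1 LG fetus, of which 65 to 86 were shared with the 148. Of the 54 protein coding calls well above the lowest value, 7 remained with an interquartile range of at least 1, 14 with only the 6 LG arrays, 34 with trend and robust variances, 0 at an adjusted p of at most 0.05 and 19 to 44 without 1 fetus. By construction the stricter filter tests fewer transcripts, and the other causes were not tested. A distance of at least 2 gave 83 such calls and a mean at or above the median 9. All other settings kept these counts within 1.5 times, including the fit without EG control fetus 2 (197 calls, 44 of the 54). The LG minus EG effect gave 163 to 245 calls without 1 fetus against 207, and the LV minus RV effect 135 to 199 against 140, or 147 with the replicate block. Of 72 named calls, 0 passed at an adjusted p of at most 0.05, and 2 (lowest values raised) to 49 (interquartile range of at least 1) were not called in each of 15 other settings, untested ones included. With 3 fetuses a side and many levels near the lowest value, single transcripts are measured with limited precision.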

Other observations

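Some uncalled transcripts, among them those of matrix proteins, had their highest LG level in LV of control fetus 7. Efemp1, a matrix protein of elastic fibres, was at 11.36 in fetus 7 against 7.21 in each of the other controls and 7.25 to 9.31 in BPA fetuses. Ctgf was at 12.47 there against 9.30 and 9.28, complement factor D (Cfd) at 10.27 against 6.22 and 7.97, and the adhesion receptor Gpr133 at 9.01 against 5.45 and 5.84. Smooth muscle Myh11 was at 10.17 in fetus 7 and 7.65 and 7.72 in the other controls, with BPA fetus 12 at 10.75. The transcripts were picked after their values were seen. Fetus 7 also held the highest control level of Kif5c (7.63), Slc10a4 (8.36) and Tmem132c (6.40), and its array weight was 0.46, the lowest of the LG fetuses, against 0.37 for EG control fetus 2.

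Erythroid 5-aminolevulinate synthase (Alas2) was at 8.77, 9.08 and 7.76 in controls and 10.79, 8.31 and 9.97 in BPA fetuses (LFC 1.15), and the leucocyte antigen Cd52 at 9.32, 9.30 and 7.7 against 10.32, 8.35 and 10.35. In both, BPA fetuses 10 and 12 lay above all controls and fetus 11 lay within the range of the controls. Myh6 was at 7.62, 13.45 and 5.56 in fetuses 10, 11 and 12, and at 14.2 to 14.4 in the controls. These transcripts were picked after their values were seen, and a relation between them was not tested.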
